A study of Mus musculus with 18 samples.

Results

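Transcript levels of 7 genes of cholesterol synthesis and its control were followed through 3 bone marrow progenitor populations of mouse, with *Trim33* intact or targeted for deletion. The genes are *Hmgcs1*, *Idi1*, *Fdft1*, *Sqle*, *Lss*, *Cyp51* and *Insig1*. They were taken by symbol from tables of gene expression that share 18169 genes, and each of the 7 had a row in all 3 tables. The first 6 encode enzymes of the pathway and *Insig1* encodes a protein that regulates it; genes of cholesterol uptake are not among the 7 and were described from a separate list.

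The libraries came from multipotent progenitors (MPPs), from common dendritic cell progenitors that lack surface CD115 (CD115- CDPs) and from common lymphoid progenitors (CLPs), sorted from bone marrow of C57BL/6 mice aged 6 to 8 weeks. WT animals carried *Trim33* fl/fl alone and KO animals *Trim33* fl/fl with Cre-ERT2, a tamoxifen-activated Cre that acts throughout the body. Animals of both genotypes carried the floxed alleles and, as described, received 2 mg of tamoxifen on 5 days and were kept for 7 days more. For each population 3 libraries were WT and 3 carried the KO label, 18 in all. The sources used here do not say how many animals went into a library, so that p-values measure the spread between these libraries only. Since *Trim33* codes for a chromatin-bound regulator of transcription studied here for its part in dendritic cell development, the comparisons ask how its deletion changed each progenitor.

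Cells make cholesterol from acetyl-CoA through mevalonate, isoprenoid diphosphates, squalene and lanosterol. The genes of most of these steps are activated by SREBP transcription factors when sterols in the endoplasmic reticulum are low. INSIG proteins hold the SCAP-SREBP complex in that membrane when sterols are plentiful, and *Insig1* is itself an SREBP target. Proliferating blood progenitors need sterols for new membrane and isoprenoids for protein prenylation.

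On GRCm38 the genes lie apart on 5 chromosomes, with *Hmgcs1* (Entrez 208715) at chr13:119690351-119708260 and *Idi1* (319554) at chr13:8885606-8892396. *Fdft1* (14137) lies at chr14:63145150-63181687, *Sqle* (20775) at chr15:59315092-59331193 and *Lss* (16987) at chr10:76531565-76557139. *Cyp51* (13121) lies at chr5:4080674-4104697 and *Insig1* (231070) at chr5:28071412-28078662.

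Promoter windows were available in RefSeq (GRCm38) for 5 of the 7 genes, and those stretches that lie upstream of every annotated transcript and hold a match are shown, because SREBP target promoters are known to pair a sterol response element with the CCAAT box bound by NF-Y. Capitals mark matches, on either strand, to CCAAT (read as ATTGG on the other strand), to TCACNCCAC as a sterol response element and to CACGTG, an E-box. The *Hmgcs1* stretch is chr13:119690101-119690350, plus strand, bases -250 to -1 from the RefSeq start. The *Insig1* stretch is chr5:28071162-28071361, plus strand, bases -250 to -51, and the *Lss* stretch is chr10:76531505-76531564, plus strand, bases -100 to -41. The *Lss* bases are counted from a transcript start that lies downstream of the gene start given above.
Hmgcs1: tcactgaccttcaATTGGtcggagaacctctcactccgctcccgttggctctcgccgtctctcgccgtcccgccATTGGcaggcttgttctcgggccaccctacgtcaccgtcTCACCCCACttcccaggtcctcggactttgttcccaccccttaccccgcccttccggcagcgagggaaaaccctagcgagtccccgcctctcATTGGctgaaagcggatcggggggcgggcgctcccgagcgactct
Insig1: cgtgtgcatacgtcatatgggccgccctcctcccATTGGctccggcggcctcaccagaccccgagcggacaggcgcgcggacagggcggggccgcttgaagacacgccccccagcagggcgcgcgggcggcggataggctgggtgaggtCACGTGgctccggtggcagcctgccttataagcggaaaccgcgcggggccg
Lss: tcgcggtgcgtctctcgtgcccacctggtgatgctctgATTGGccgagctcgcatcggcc
All 5 windows of 300 bases held CCAAT on one strand or the other, against 37.4% of the 32851 windows of all genes. The element TCACNCCAC was found in the *Hmgcs1* window alone of the 5, with its first base at -137, and in 1.24% of all windows. The E-box lay in the *Insig1* window, at -101, and in 7.15% of all windows. In *Idi1* CCAAT matched at -45 and -14 and in *Cyp51* at -29, bases that other annotation places inside the transcript. Among the 14 windows of the other genes of the pathway, which came from 11 genes, 10 held CCAAT, 3 held the E-box and 0 held TCACNCCAC. These matches describe the letters of the windows and no binding was measured.

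Values are FPKM, which the authors computed per gene and library, so levels can be set side by side between genes. The depth inferred from the smallest steps in FPKM was 19.4 to 21.4 M reads per library. At that depth the lowest gene, *Lss*, rested on about 110 to 450 reads per library and *Insig1* on about 958 to 3001. Differences were tested with limma on log2(FPKM + 1), a scale that understates the change of genes of low expression such as *Lss*. SE is the standard error of a log2 fold change. A gene passed when its p, adjusted by Benjamini-Hochberg over all genes tested, was 0.05 or less, and it was called if its absolute log2 fold change was also at least 1.

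The marker genes of the sort were present, with *Flt3* at 147 to 330 FPKM in all 18 libraries and *Il7r* at 32.6 to 63.0 FPKM in CLPs against 1.89 to 20.6 FPKM elsewhere. *Csf1r*, which encodes CD115, was nevertheless 39.1 to 137 FPKM in WT CD115- CDPs. *Trim33* itself did not separate the genotypes in MPPs: KO-labelled libraries held 9.71, 11.66 and 4.80 FPKM and WT libraries 10.42, 10.12 and 8.78 FPKM. In CD115- CDPs it was 9.64, 8.28 and 4.03 against 14.30, 15.23 and 8.27 FPKM, and in CLPs 7.52, 5.60 and 7.66 against 12.36, 7.01 and 8.86 FPKM. A whole-gene value need not fall when only some exons are deleted, so the libraries are named by their label. The CD115- CDP libraries numbered 3 stood apart. Their 9 neutrophil granule genes summed to 4510 FPKM (WT) and 4443 FPKM (KO-labelled), where the other 4 libraries of that population had 695 to 1063 FPKM. The 2 libraries were not alike in 8 monocyte and macrophage markers, which summed to 2091 FPKM (WT) and 353 FPKM (KO-labelled). In libraries 1 and 2 these markers summed to 289 and 199 FPKM (WT) and 130 and 111 FPKM (KO-labelled). For the 7 genes, counts that passed between groups are given with and without CD115- CDP libraries numbered 3 and KO-labelled MPP library 3. Results of other genes, of the replicate block and of the interaction are given with all libraries only.

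In WT cells the sum of the 7 genes was highest in CLPs. The 7 genes summed to 107 to 143 FPKM in WT CLPs, to 81.6 to 102 FPKM in WT CD115- CDPs and to 78.6 to 80.7 FPKM in WT MPPs. *Insig1* had the highest level of the 7 and *Lss* the lowest in every library. Of the 7, *Insig1* alone had a higher mean in WT CD115- CDPs (43.0 FPKM) than in WT CLPs (37.8 FPKM).

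**Figure D1:**
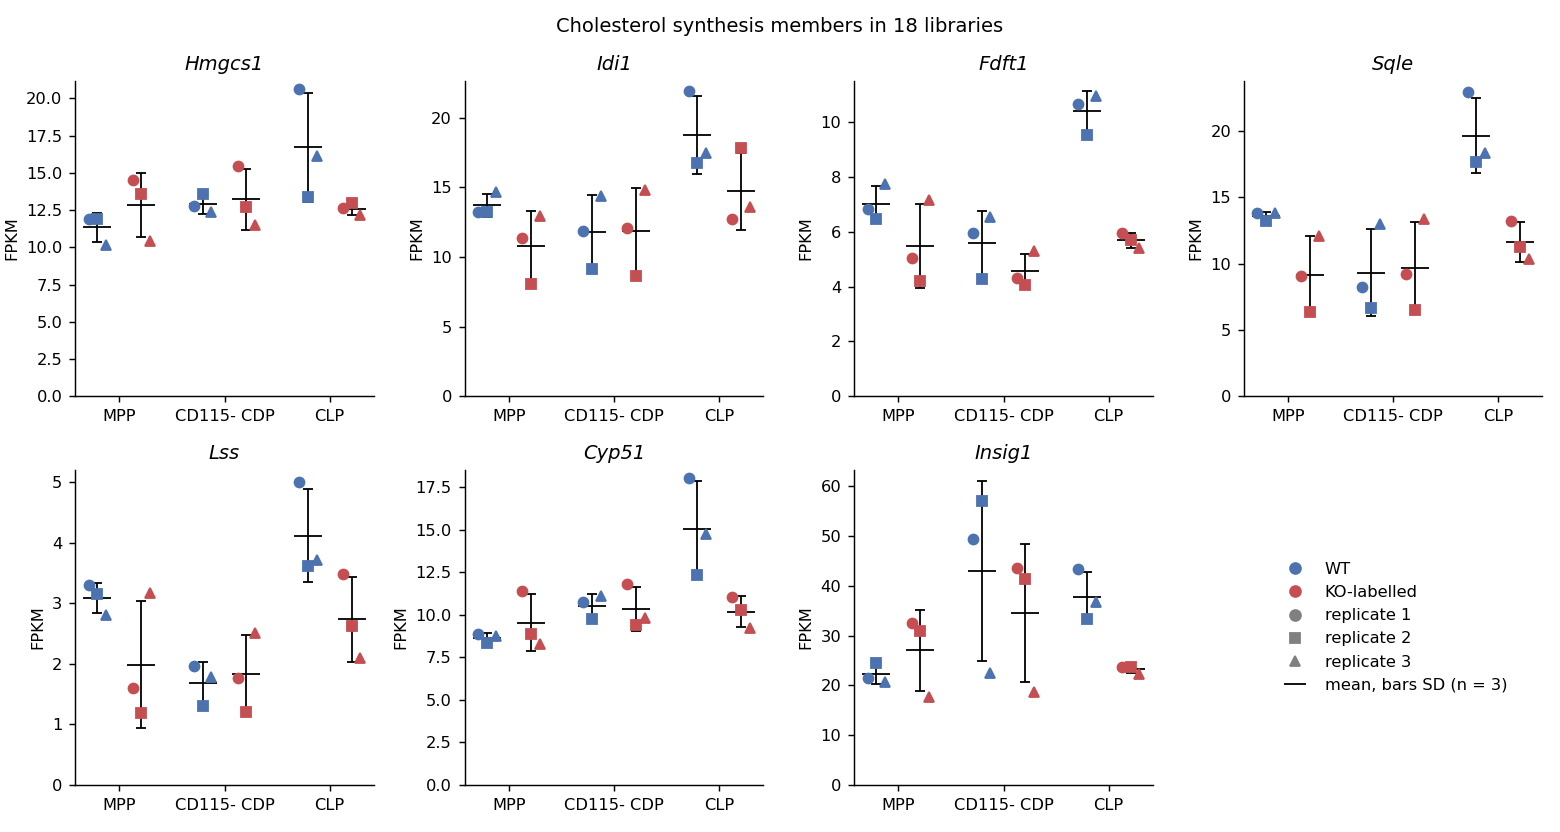
FPKM (vertical axes) of the 7 genes in the 18 libraries; blue, WT; red, KO-labelled; circles, squares and triangles, replicates 1, 2 and 3; black lines, means with SD (n = 3). In CLPs the red points lie below the blue ones for all genes but *Idi1*, and in CD115- CDPs *Insig1* of replicate 3 lies at 22.48 and 18.60 FPKM, below the other 4 libraries.

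All 7 genes were higher in WT CLPs than in WT MPPs without overlap between the libraries, as were 24.3% of genes tested. Of the 7, 6 passed the test, against 18.2% of all genes that passed in that direction, and 0 were called, since every log2 fold change was under 1. *Insig1* was 43.33, 33.34 and 36.77 FPKM in CLPs and 21.53, 24.44 and 20.65 FPKM in MPPs, a log2 fold change of 0.74 (limma adjusted p = 0.00160, SE 0.116). *Cyp51*, which encodes the lanosterol demethylase, was 18.01, 12.34 and 14.72 against 8.88, 8.32 and 8.72 FPKM, a log2 fold change of 0.72 (limma adjusted p = 0.00377, SE 0.134). These were the largest differences of the 7. *Fdft1*, squalene synthase and the first step committed to sterols, was 10.66, 9.55 and 10.97 against 6.85, 6.48 and 7.76 FPKM (log2 fold change 0.51, SE 0.106, limma adjusted p = 0.00631). *Hmgcs1*, which makes HMG-CoA, was 20.64, 13.40 and 16.10 against 11.90, 11.92 and 10.17 FPKM (log2 fold change 0.51, SE 0.153, limma adjusted p = 0.0303). *Sqle*, the squalene epoxidase and a control point of the pathway, was 22.94, 17.69 and 18.38 against 13.79, 13.19 and 13.79 FPKM (log2 fold change 0.49, SE 0.111, limma adjusted p = 0.00892). The libraries of each population thus formed separate ranges for every one of these enzymes. *Idi1*, the isopentenyl diphosphate isomerase, was 21.95, 16.77 and 17.51 against 13.26, 13.21 and 14.65 FPKM (log2 fold change 0.42, SE 0.117, limma adjusted p = 0.0224). *Lss*, lanosterol synthase, was 5.0, 3.62 and 3.72 against 3.30, 3.15 and 2.81 FPKM and did not pass (log2 fold change 0.31, SE 0.132, limma adjusted p = 0.0897). Leaving out single libraries gave 4 to 6 genes that passed, where 1632 to 2507 of the 12495 to 12544 genes tested passed higher. The 13 cycling genes summed to more in WT CLPs too, at 1429 to 1850 FPKM against 1209 to 1300 FPKM, 7 of 13 passing higher and 9 without overlap, and their part in the result was not tested. Population and table cannot be told apart in this comparison.

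In WT CD115- CDPs 4 of the 7 genes had a log2 fold change below 0 against WT MPPs and 3 above. Population and table cannot be told apart against MPPs or against CLPs. The number that passed against MPPs was close to the share of all genes, with and without WT library 3. *Lss* was lower than in MPPs, at 1.96, 1.30 and 1.78 FPKM (log2 fold change -0.61, SE 0.140, limma adjusted p = 0.0332). It was the only one of the 7 to pass, where 12.4% of all genes passed lower. Leaving out WT CD115- CDP library 3 kept that result, and leaving out any other of the 6 libraries ended it. With libraries blocked by replicate number, a pairing across populations that was not checked, the limma adjusted p of *Lss* was 0.0652. *Sqle* was 8.26, 6.68 and 13.01 FPKM and *Insig1* 49.42, 57.09 and 22.48 FPKM. For both genes library 3 lay far from the other pair. Without WT library 3 *Insig1* was called higher than in MPPs, with a log2 fold change of 1.23 (limma adjusted p = 0.000384, SE 0.109), and *Sqle*, *Idi1* and *Lss* passed lower, at -0.79, -0.36 and -0.65. In that fit 19.4% of all genes passed higher and 38.1% lower. Against WT CLPs, *Sqle*, *Idi1*, *Fdft1*, *Lss* and *Cyp51* were lower in WT CD115- CDPs without overlap, as were 19.9% of genes, but by limma 0 of the 7 passed (5 had an unadjusted p under 0.05), where 1.77% of genes passed lower. The log2 fold changes of these 5 ran from -0.46 to -1.04. Without WT CD115- CDP library 3, *Sqle* was called at -1.28 (limma adjusted p = 0.00155, SE 0.173), *Idi1*, *Fdft1* and *Lss* also passed lower and *Insig1* passed higher at 0.49 (limma adjusted p = 0.0425, SE 0.154), with 18.9% of all genes passing lower and 10.8% higher.

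In CLPs the pathway was lower in the libraries labelled KO. The 7 genes summed to 82.8, 84.4 and 75.2 FPKM, below the WT sums of 143, 107 and 118 FPKM and within the range of 71.8 to 85.5 FPKM in KO-labelled MPPs. All 7 had a log2 fold change below 0, from -0.33 to -0.77 with a median of -0.51, while the median of all genes tested was 0.0076. For 6 of the 7 the WT and KO-labelled values did not overlap, as for 18.6% of genes tested. *Fdft1*, *Sqle* and *Insig1* passed the test, where 8.92% of genes passed lower, and 0 of the 7 were called, where 2.84% of genes were called lower. The pathway difference between WT CLPs and WT MPPs rests on the same WT CLP libraries, so that the 2 comparisons are not independent.

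Among the 6 enzymes of the 7 genes, *Fdft1* fell most. It was 5.97, 5.69 and 5.42 FPKM in KO-labelled CLPs and 10.66, 9.55 and 10.97 FPKM in WT, with every KO-labelled library below every WT one (log2 fold change -0.77, SE 0.110, limma adjusted p = 0.00248). *Sqle* was 13.26, 11.27 and 10.32 FPKM in KO-labelled libraries and 22.94, 17.69 and 18.38 FPKM in WT, also without overlap (log2 fold change -0.71, SE 0.137, limma adjusted p = 0.0109). *Insig1* was 23.72, 23.69 and 22.37 FPKM in KO-labelled CLPs, a narrow range below its 33.34 to 43.33 FPKM in WT (log2 fold change -0.67, SE 0.115, limma adjusted p = 0.00611).

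The other 4 genes did not pass. *Cyp51* was 11.03, 10.30 and 9.23 FPKM in KO-labelled libraries against 18.01, 12.34 and 14.72 FPKM in WT (log2 fold change -0.51, SE 0.146, limma adjusted p = 0.0536). *Lss* was 3.48, 2.62 and 2.10 against 5.0, 3.62 and 3.72 FPKM (log2 fold change -0.46, SE 0.173, limma adjusted p = 0.117). Both sets of values were apart, by a small margin in *Lss*. *Hmgcs1* was 12.63, 13 and 12.15 against 20.64, 13.40 and 16.10 FPKM (log2 fold change -0.36, SE 0.150, limma adjusted p = 0.150). *Idi1* was 12.72, 17.87 and 13.60 FPKM, with KO-labelled library 2 inside the WT range of 16.77 to 21.95 FPKM (log2 fold change -0.33, SE 0.154, limma adjusted p = 0.193).

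Deviations of same-numbered CLP libraries from their group means correlated at 0.131 to 0.400, a weak pairing. With the replicate number as a block *Lss* (limma adjusted p = 0.0314) and *Cyp51* (limma adjusted p = 0.0213) passed too. That gave 5 lower genes, where 12.5% of all genes passed lower. Leaving out any 1 library left 3 or 4 genes passing, where 674 to 1316 of all genes passed lower, against 1101 with all libraries. Leaving out both CLP libraries numbered 2 left 2 genes, where 443 of 12322 passed lower. Leaving out both numbered 3 left 0, where 477 of 12373 passed lower. Fewer of all genes thus passed lower in these last fits too. Over all alternatives the limma adjusted p ran from 0.00180 to 0.070 for *Fdft1*, from 0.00368 to 0.0881 for *Insig1* and from 0.00222 to 0.104 for *Sqle*. Other lists moved with the label in the same libraries, where 8.92% of all genes passed lower without the block. The 7 dendritic cell markers summed to 91.3 to 103 FPKM in KO-labelled CLPs and 701 to 765 FPKM in WT, and 5 of the 5 tested were lower at adjusted p of at most 0.05. The 13 cycling genes summed to 1317 to 1454 FPKM against 1429 to 1850 FPKM, with 5 of them lower. The 8 monocyte and macrophage markers summed to 67.3 to 110 FPKM against 259 to 340 FPKM, with 4 of the 6 tested lower. The 11 erythroid genes summed to 5.93 to 10.1 FPKM against 35.3 to 57.6 FPKM, with 3 of the 5 tested lower. No marker of these lists was at 0 throughout WT or KO-labelled CLPs. The 7 T and NK markers went the other way, at 134 to 157 FPKM against 70.6 to 98.9 FPKM. Of the 3 tested 1 passed higher, where 5.41% of all genes did, and *Cd3e* was at 0 in all 3 KO-labelled CLP libraries. The part of all these lists in the fall of the pathway was not tested. In bulk libraries fewer cells of a type cannot be told apart from less RNA per cell.

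**Figure D2:**
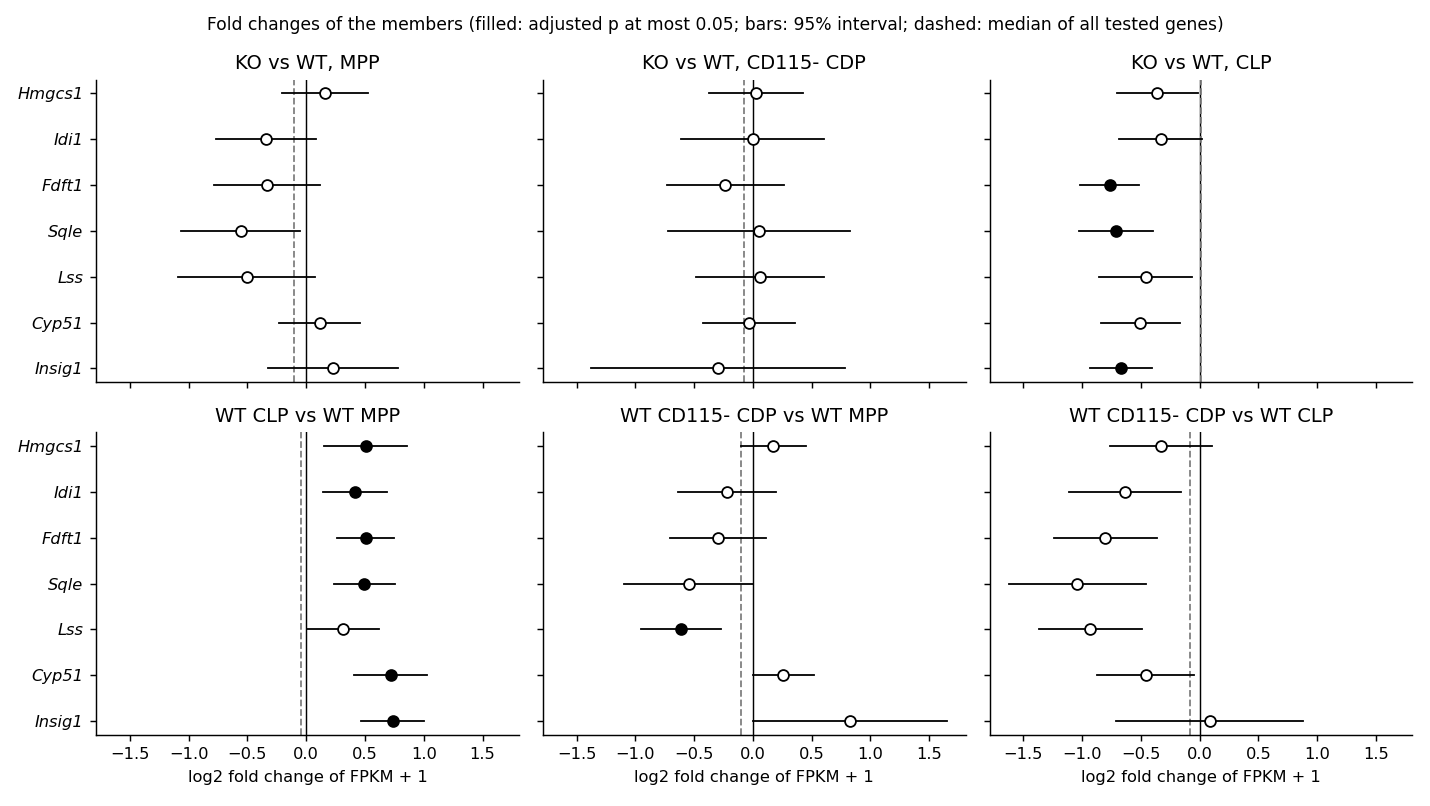
Log2 fold change of FPKM + 1 (horizontal axes) for the 7 genes in 3 comparisons of KO-labelled with WT libraries and 3 of WT populations; bars, 95% intervals; filled points, adjusted p of at most 0.05; dashed lines, median of all tested genes. *Fdft1*, *Sqle* and *Insig1* are filled and lie from -0.67 to -0.77 in CLPs, no gene is filled in MPPs or CD115- CDPs, and 6 of 7 are filled above 0 for WT CLPs against WT MPPs.

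The remaining genes of the pathway were lower in KO-labelled CLPs as well. Of the 14 other genes of the mevalonate arm and of the steps from squalene to cholesterol, all 14 had a log2 fold change below 0, with a median of -0.44, and 7 passed lower and 0 higher. Among all genes tested, 8.92% passed lower. With the replicate block 8 passed lower, where 12.5% of all genes did. *Fdps*, farnesyl diphosphate synthase, which supplies both squalene and the prenyl groups, was called: it was 33.16, 34.00 and 27.85 FPKM in KO-labelled CLPs and 89.18, 87.13 and 78.39 FPKM in WT (log2 fold change -1.40, SE 0.110, limma adjusted p = 9.43e-05). The genotypes were far apart. *Mvd*, the mevalonate diphosphate decarboxylase, was 7.37, 8.39 and 6.19 against 14.19, 16.35 and 12.44 FPKM (log2 fold change -0.88, SE 0.144, limma adjusted p = 0.00475). The others that passed, named here after their values were seen, were *Pmvk* and *Mvk*, kinases of the mevalonate arm, at -0.75 and -0.52, and *Msmo1*, *Sc5d* and *Nsdhl*, enzymes after lanosterol, at -0.85, -0.62 and -0.43.

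Sensors and uptake were lower in part. Among all genes tested in CLPs, 8.92% passed lower and 5.41% higher. Of the 7 genes of SREBP sensing and processing, *Insig1* and *Srebf2* passed lower in CLPs. *Srebf2*, named after its values were seen and the gene of the SREBP that chiefly drives sterol synthesis, was 74.21, 69.49 and 65.38 FPKM against 103.77, 94.98 and 84.98 FPKM (log2 fold change -0.43, SE 0.107, limma adjusted p = 0.0303). Of 8 tested genes of uptake and lysosomal release, 3 passed lower and 1 higher. *Npc1*, which exports cholesterol from lysosomes, was 29.04, 24.76 and 26.18 against 48.12, 38.73 and 33.09 FPKM, at -0.55 on the log2 scale (limma adjusted p = 0.0355, SE 0.143), and *Npc2*, its partner, named after its values were seen, fell by 0.70. Of 8 tested genes of LXR, efflux and esterification 1 passed, *Cyp27a1*, a sterol hydroxylase, which was 0.16, 0.29 and 0.41 FPKM against 7.06, 8.87 and 6.13 FPKM (log2 fold change -2.69, SE 0.155, limma adjusted p = 1.58e-05). Of 9 tested SREBP targets of fatty acid synthesis *Fads2*, a desaturase, and *Acss2*, which makes acetyl-CoA from acetate, passed lower, both at -0.51. Of the 8 genes of the isoprenoid branch, which uses farnesyl diphosphate for other ends, 0 passed by limma and 0 had an unadjusted p under 0.05, with a median of 0.042 against 0.0076 over all genes.

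**Figure D3:**
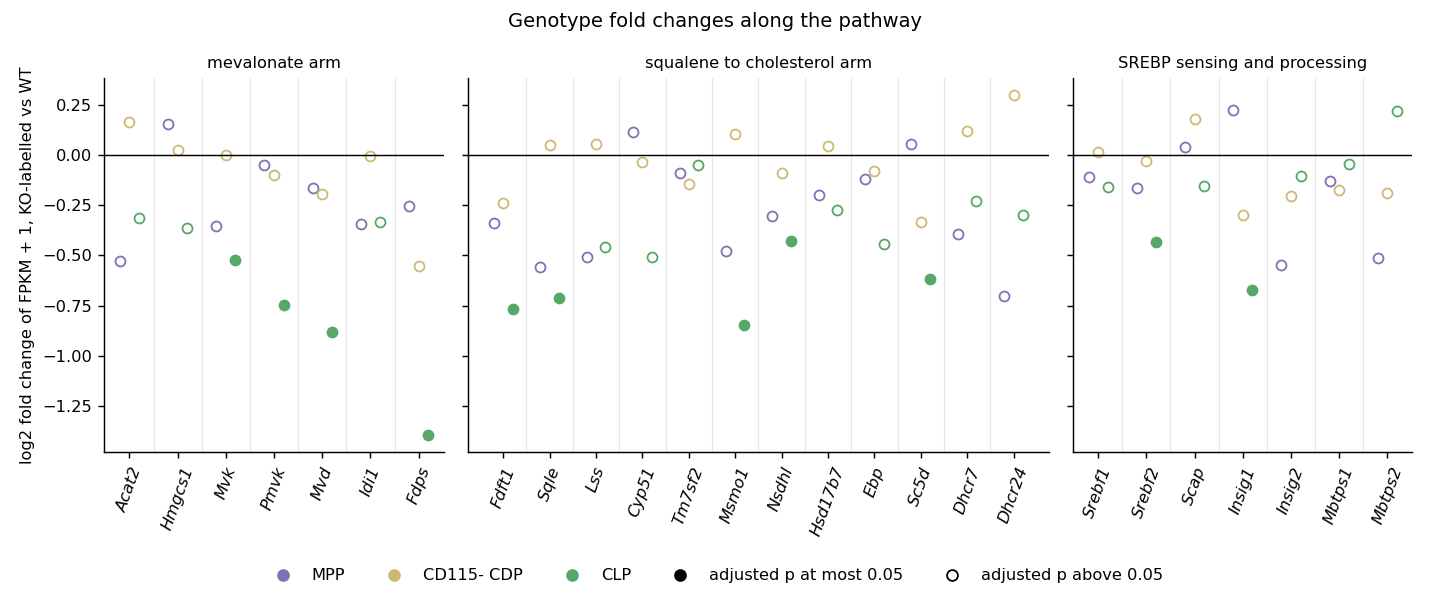
Log2 fold change of FPKM + 1 (vertical axis) between KO-labelled and WT libraries for genes of 3 lists, in pathway order along the horizontal axis; purple, MPPs; ochre, CD115- CDPs; green, CLPs; filled, adjusted p of at most 0.05; genes below the expression minimum in a population have no point there. The green points of both synthesis arms lie below 0, down to -1.40 for *Fdps*.

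In MPPs none of the 7 genes passed between the genotypes with all 6 libraries, where 0.315% of genes passed higher and 3.52% lower, and 0 of the 14 other pathway genes passed. By limma, 1 of the 7 (*Sqle*) and 2 of the 14 had an unadjusted p under 0.05. *Sqle* and *Idi1* were lower without overlap, as were 23.3% of genes. The 3 KO-labelled libraries did not agree among themselves, whereas the WT libraries were close for all 7 genes. *Sqle* was 9.06, 6.36 and 12.11 FPKM in KO-labelled libraries 1, 2 and 3 against 13.19 to 13.79 FPKM in WT (log2 fold change -0.56, SE 0.211, limma adjusted p = 0.176). *Lss* was 1.60, 1.18 and 3.17 FPKM against 2.81 to 3.30 FPKM in WT, and *Fdft1* 5.03, 4.20 and 7.17 FPKM against 6.48 to 7.76 FPKM. For both, library 3 lay in the WT range and libraries 1 and 2 below it. *Idi1* was 11.39, 8.03 and 12.94 FPKM against 13.21 to 14.65 FPKM. In contrast *Insig1* was 32.50 and 30.92 FPKM in libraries 1 and 2, above its WT range of 20.65 to 24.44 FPKM, and 17.66 FPKM in library 3, below it. *Hmgcs1* was 14.53, 13.58 and 10.42 FPKM against 10.17 to 11.92 FPKM, again with libraries 1 and 2 above WT. *Cyp51* was 11.42, 8.85 and 8.28 FPKM against 8.32 to 8.88 FPKM, with library 1 alone far above WT.

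Leaving out KO-labelled MPP library 3 changed the result for 6 of the 7 genes. *Hmgcs1* and *Insig1* then passed higher, at log2 fold changes of 0.29 and 0.50 (limma adjusted p = 0.0430 and 0.00529). *Sqle*, *Idi1*, *Fdft1* and *Lss* passed lower, at -0.76, -0.47, -0.52 and -0.78 (limma adjusted p = 0.00542, 0.0322, 0.0106 and 0.00321), while *Cyp51* at 0.20 did not (limma adjusted p = 0.190). In that fit 15.5% of all genes passed higher and 38.8% lower, so that these shares form the background of the 2 and the 4 genes. Leaving out WT library 3 as well gave 1 higher and 3 lower genes, where 1804 of 12340 genes passed higher and 4313 lower. The limma adjusted p of each of the 7 over the alternatives reached from 0.00321 at the lowest, for *Lss*, to 0.996 at the highest, for *Cyp51*. KO-labelled libraries 1 and 2 differed from library 3 in other lists too. The 10 genes of the unfolded protein and integrated stress responses summed to 1446, 1445 and 681 FPKM in KO-labelled libraries 1, 2 and 3 and to 911 to 1014 FPKM in WT, and the 13 cycling genes to 1122, 1047 and 1538 FPKM against 1209 to 1300 FPKM. *Trim33* was lowest in library 3. The 11 erythroid genes were low in all 3 KO-labelled libraries, at 32.5 to 58.7 FPKM against 368 to 398 FPKM in WT, with 10 of 11 passing lower and none at 0 throughout a group. The part of these differences in the values of the 7 genes was not tested.

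In the other cholesterol and lipid lists 2 genes were called in MPPs, both lower. *Apoe*, the apolipoprotein of lipid export, was 6.79, 8.64 and 5.04 FPKM in KO-labelled MPPs and 34.33, 27.81 and 34.60 FPKM in WT (log2 fold change -2.11, SE 0.193, limma adjusted p = 0.00449). *Cyp27a1* was 1.11, 1.06 and 1.48 against 3.32, 3.37 and 4.38 FPKM (log2 fold change -1.08, SE 0.146, limma adjusted p = 0.0173). For both genes library 3 lay with the other KO-labelled libraries. Beside them, the 8 markers of monocytes and macrophages, cells known to express *Apoe*, summed to 167 to 241 FPKM in KO-labelled MPPs against 555 to 572 FPKM in WT. Of the 8, 6 passed lower and 0 were at 0 throughout either group. The part of such cells in the *Apoe* values was not tested.

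In CD115- CDPs none of the 7 genes passed, where 0.0409% of all genes passed higher and 0.0654% lower, and values of the genotypes overlapped for all 7. By limma 0 of the 7 also had an unadjusted p under 0.05. The spread followed the replicate number. *Insig1* was 43.54, 41.42 and 18.60 FPKM in KO-labelled libraries 1, 2 and 3 and 49.42, 57.09 and 22.48 FPKM in WT. *Sqle* was 9.25, 6.53 and 13.35 against 8.26, 6.68 and 13.01 FPKM, and *Idi1* was 12.09, 8.67 and 14.83 against 11.89, 9.14 and 14.39 FPKM. In both genotypes library 3 was thus lowest for *Insig1* and highest for *Sqle* and *Idi1*. *Fdft1* was 4.31, 4.06 and 5.29 against 5.97, 4.27 and 6.54 FPKM, and *Lss* was 1.76, 1.21 and 2.51 against 1.96, 1.30 and 1.78 FPKM. *Hmgcs1* was 15.48, 12.68 and 11.51 against 12.76, 13.57 and 12.34 FPKM, and *Cyp51* was 11.79, 9.40 and 9.78 against 10.74, 9.77 and 11.10 FPKM. The log2 fold changes between genotypes ran from -0.30 for *Insig1* to 0.059 for *Lss*.

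The 95% interval of the log2 fold change was widest for *Insig1*, at -1.38 to 0.79, and was -0.73 to 0.83 for *Sqle*. For 5 of the 7 genes the log2 fold change estimated in CLPs lay inside the CD115- CDP interval, and for *Fdft1* (-0.74 to 0.26) and *Cyp51* (-0.42 to 0.36) it lay outside. With the replicate number as a block, which these libraries share by their deviations, the SE fell to 0.101 for *Insig1* and 0.111 for *Sqle*, and 0 of the 7 passed, where 5.56% of all genes passed lower. The blocked intervals were -0.54 to -0.054 for *Insig1* and -0.22 to 0.32 for *Sqle*, and the estimates from CLPs lay outside the blocked interval for all 7 genes. These intervals leave out the error of the CLP estimates, and the difference itself is tested by the interaction given further on. The lowest blocked limma adjusted p was 0.108, for *Insig1*. *Fdps* passed with the block (log2 fold change -0.55, SE 0.311 without it, limma adjusted p = 0.588 without and 0.0362 with the block), as did *Npc1* at -0.52 (limma adjusted p = 0.485 and 0.0330) and *Cyp27a1* at -1.92 (limma adjusted p = 0.403 and 0.0143). In WT library 3 *Fdps* was 118.07 FPKM and *Cyp27a1* 14.68 FPKM, each the highest of the population. *Npc1* was 17.30 FPKM there, its lowest in WT. For these other genes no fit without the libraries numbered 3 is given. Without both CD115- CDP libraries numbered 3, 0 of the 7 genes passed. Dendritic cell markers summed to 124 to 147 FPKM in KO-labelled CD115- CDPs and 288 to 385 FPKM in WT, with *Cd209a* at 0 in all 3 KO-labelled libraries. The libraries numbered 3 also had low sums of the 10 stress response genes, 743 and 835 FPKM against 1484 to 1946 FPKM in the other 4. The part of these cell and stress differences was not tested.

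**Figure D4:**
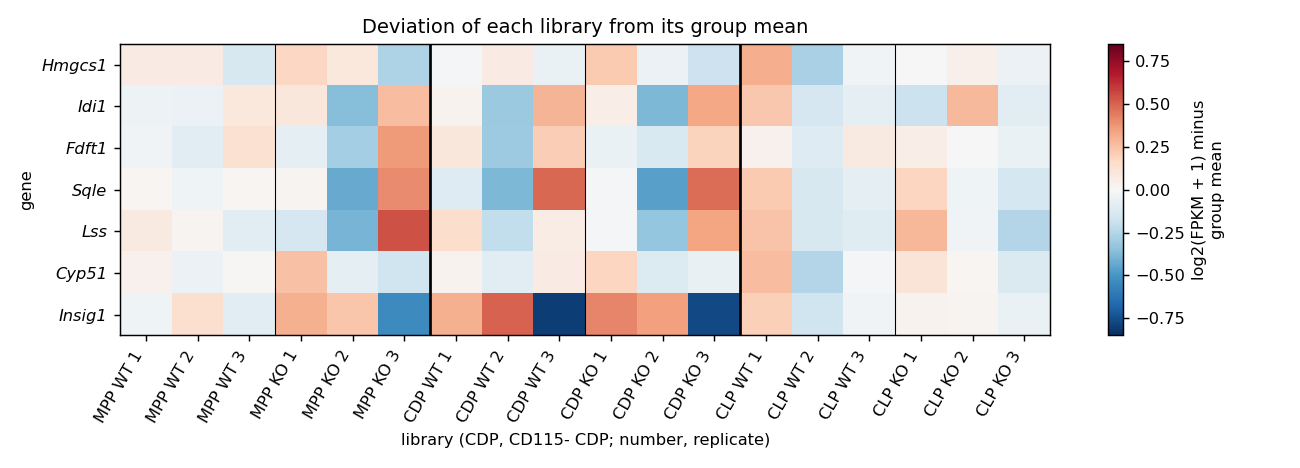
Log2(FPKM + 1) of each library (columns) minus the mean of its group of 3, for the 7 genes (rows); red, above the group mean; blue, below. In CD115- CDPs the libraries numbered 3 are at -0.80 and -0.77 for *Insig1* and at 0.49 and 0.47 for *Sqle*, and KO-labelled MPP library 3 is at -0.54 and 0.41.

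The libraries numbered 3 of KO-labelled MPPs and of both genotypes of CD115- CDPs lay on the same side of their group mean for all of the 7 genes but *Cyp51*, which was above it in WT CD115- CDP library 3 (by 0.071) and below it in the other two. KO-labelled MPP library 3 lay above its group mean for *Sqle* (by 0.41 on the log2 scale), *Idi1* (0.27), *Fdft1* (0.36) and *Lss* (0.54) and below it for *Insig1* (-0.54), *Hmgcs1* (-0.27) and *Cyp51* (-0.17). In WT CLPs library 1 was above its group mean for all 7 genes, by 0.036 for *Fdft1* to 0.31 for *Hmgcs1*, and library 2 was below it for all 7. These are descriptions of single libraries.

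An interaction term fitted over all 18 libraries asked whether populations differed in their change with genotype. None of the 7 genes passed, where 2.45% of all genes did, and by limma 1 of them had an unadjusted p under 0.05. The smallest adjusted p was that of *Cyp51* (limma adjusted p = 0.218), for which the log2 fold change in CLPs minus that in MPPs was -0.62 (SE 0.205). For *Insig1* this difference was -0.90 (limma adjusted p = 0.522, SE 0.474) and for *Hmgcs1* -0.52 (limma adjusted p = 0.383, SE 0.220). With the replicate block *Insig1* alone passed (limma adjusted p = 0.0425), where 8.67% of all genes passed. That fit blocked MPP libraries by number too, although MPP numbers were not taken to pair libraries. A fall in CLPs was therefore not shown to differ from the changes in the other populations for 6 of the 7, with or without the block.

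The genes whose levels most resembled the 7 were sought among 8519 genes that averaged 5 FPKM or more, by Pearson correlation with the mean standardized log2(FPKM + 1) of the 7. Over the 18 libraries, which share populations and genotypes, the 10 closest included *Fyb* (r = 0.88), *Smim5* (0.87), *Tmc8*, *Hsdl2*, *Atp13a2*, *Zcchc24*, *Ccni* and *Adam11*, down to 0.86. After the mean of each group of 3 was subtracted, the 10 closest included *Phf20* (r = 0.90), *Ccni* (0.84), *Phf6*, *Usp25*, *Arhgef6*, *Cep76*, *Caprin1*, *Mfap1b* and *Prps2*, down to 0.79. Of the 7 themselves *Cyp51* lay closest to their mean over all libraries (r = 0.88) and *Insig1* farthest (r = 0.23, and -0.19 after subtraction). Each of the 7 is itself part of that mean, which raises its r relative to other genes. These correlations are descriptions of shared libraries and carry no test.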

How the data were processed

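RNA of sorted MPPs, CD115- CDPs and CLPs was sequenced as single-end reads of 50 bases. Per the submitters' processing notes and the study's methods, the authors aligned reads with Bowtie2 2.2.5 and quantified genes with RSEM 1.2.12; HISAT2 2.0.4 and mm10 are also named. The deposited values are FPKM per gene, rounded by the authors to 2 decimals. Read counts were not used here, so that no count test was run.

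For each comparison, genes averaging 0.5 FPKM or more in its 6 libraries entered a linear model of log2(FPKM + 1) in limma 3.58.1 (R 4.3.3; moderated variances with a mean trend), and p-values were adjusted by Benjamini-Hochberg. The interaction was an F test over all 18 libraries. The scripts were tested on simulated data. Same-numbered libraries were checked by the correlation of their deviations from group means, which was 0.131 to 0.400 in CLPs, 0.437 to 0.790 in CD115- CDPs and 0.038 to 0.482 in MPPs. The replicate numbers come from the labels. A number was taken to pair libraries where all 3 correlations were over 0.1, which held in CLPs and CD115- CDPs. The mean of the 3 was 0.287 in CLPs, 0.632 in CD115- CDPs and 0.331 in MPPs. By that mean same-numbered MPP libraries were no less alike than those of CLPs. The rule set MPPs apart by their lowest correlation, 0.038. No 2 libraries held the same values for more than 11.1% of genes. Depth was estimated from the step size of FPKM times effective transcript length in short genes with a single transcript (GENCODE lengths), and precision rests on the spread of replicates. Gene positions and promoters are from RefSeq on GRCm38. Summaries used pandas 2.3.3 in Python 3.11.15.

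The 7 genes and the gene lists were chosen with earlier results of these data known. Besides the 7 and *Trim33*, the text names genes of the cholesterol and lipid lists called in at least 1 comparison, and others where it says so. Some genes that these rules pick are not reported here, though the counts of lists include them. Of such genes *Scd2*, a desaturase, was called in the comparison of WT CD115- CDPs with WT MPPs alone. Alternatives tried were no filter, a filter at 5 FPKM, a pseudocount of 0.1, rescaling to TPM, median ratios, quantile normalization, no trend, the replicate block, leaving out each library, and no minimum fold change. Leaving out both libraries of a number was added after the data had been seen.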

Additional observations from a re-analysis of the deposited data

Results flagged for a closer look

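No gene of the 7, and none of the other cholesterol genes named, differed between populations in its response to the KO label at an interaction adjusted p of 0.05 without the replicate block. With the block 6 of those named did, by limma with Benjamini-Hochberg adjustment. The named genes outside the 7 were picked by their values in these data, which can favour passing. The 8.67% of all genes that passed is therefore no fair background for them. This block also paired MPP libraries by number, although those numbers were not taken to pair libraries. *Insig1* had an interaction adjusted p of 0.0425 with the block. *Fdps* had 0.00248 with the block, and *Cyp27a1* had 0.0205 and *Apoe* 0.0308. *Apoe* was 25.49 FPKM in WT CD115- CDP library 3, where WT libraries 1 and 2 had 5.85 and 5.56 FPKM. *Npc2* had 0.0397 and *Msmo1* 0.0489 with the block, and both were named after their values were seen.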

How the results depend on the processing

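No member was called between genotypes in any population, whatever the normalization, filter or library left out. Dropping the minimum fold change gave 3 members in CLPs, 6 for WT CLPs against WT MPPs and 1 for WT CD115- CDPs against WT MPPs. Leaving out single libraries gave 0 to 1 called members for WT CD115- CDPs against WT MPPs and 0 to 1 for WT CD115- CDPs against WT CLPs, the 1 in each case without CD115- CDP WT replicate 3. With the replicate block, which in that fit covered MPPs too, 1 member passed the interaction. The paired fit changed no other count of called members. In MPPs, whose replicate numbers were not taken to pair libraries, 0 members passed with the block.

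The 7 log2 fold changes in CLPs kept their sign under every alternative run. Those near 0 in CD115- CDPs did not. TPM scaling gave -0.094 for *Hmgcs1*, -0.064 for *Sqle* and -0.026 for *Lss*, median ratios gave 0.041 for *Idi1* and 0.012 for *Cyp51*, and quantile normalization gave 0.11 and 0.087. Without both libraries numbered 1 *Hmgcs1* was -0.092, without both numbered 2 *Idi1* was 0.031, and without both numbered 3 *Lss* was -0.079 and *Cyp51* 0.037. Leaving out single libraries gave -0.086 to 0.11 for *Hmgcs1*, -0.19 to 0.30 for *Sqle*, -0.17 to 0.19 for *Idi1*, -0.70 to 0.085 for *Insig1*, -0.11 to 0.22 for *Lss* and -0.12 to 0.027 for *Cyp51*, and in MPPs -0.011 to 0.20 for *Cyp51*. The cause was not tested. Over all genes, the median log2 fold change moved with scaling from -0.11 to -0.0044 (median ratios) in MPPs and from -0.075 to -0.19 (TPM) in CD115- CDPs. Counts of all genes called rested on single libraries and on the block: 20 higher and 163 lower in MPPs became 368 and 548 without KO replicate 3 and 11 to 13 and 43 to 47 without a WT replicate, and 5 and 8 in CD115- CDPs became 46 and 178 with the block.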
